A study of Mus musculus with 6 samples.

Results

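The 10 genes described here act in glycolysis or set its rate: the glucose transporter gene Slc2a1, the hexokinase gene Hk2, the phosphofructokinase genes Pfkl and Pfkp, the bifunctional regulators Pfkfb2 and Pfkfb3, the lower-pathway genes Gapdh, Pgk1 and Eno1, and the lactate dehydrogenase gene Ldhb. They were found by gene name among the non-control probes of the scanner files, which gave 19 of 41174 probes, and all 19 were among the 24627 probes kept for the test. Expression was measured in pancreatic islets of male mice on 1-colour Agilent arrays, which read the abundance of a transcript as the brightness of Cy3-labelled cRNA at a probe. The strain labelled diabetes-prone was NZO/HiBomDife (NZO, for New Zealand Obese). It was set against a strain labelled diabetes-resistant, C57BL/6.V-Lepob/ob (B6-ob/ob), which has no functional leptin. Both strains ate a high-fat diet free of carbohydrate to 18 weeks of age, and islets were taken 48 h after a diet with carbohydrate replaced it. There are 3 arrays per strain, numbered 10, 11 and 12 for NZO and 4, 5 and 6 for B6-ob/ob. Whether each sample came from 1 mouse or from several is not stated in the labels, and the spread behind the p-values is that of these samples, possibly technical. Leptin genotype and the rest of the genetic background cannot be told apart in this comparison, and islets from before the diet change were not analysed here.

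In glycolysis, glucose enters the cell through a transporter, is phosphorylated by a hexokinase, passes the step of phosphofructokinase, and is broken down to pyruvate, which lactate dehydrogenase can turn into lactate. Pancreatic beta cells of the mouse are known for taking up glucose through the transporter GLUT2 and for sending most pyruvate to the mitochondria. Many other tissues rely on hexokinases of high affinity, such as the product of Hk2. Low oxygen raises many glycolytic genes through the transcription factor HIF, and carbohydrate raises some of them through ChREBP, the product of Mlxipl.

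Of the 19 probes, 4 are printed here because their genes have further probes with which they are compared below. Each maps across an intron and so reads spliced RNA. Positions are those of the file headers on mm9, all on the minus strand: the Pfkfb3 probes at chr2:11411973-11414235 and chr2:11404189-11405602, the Pfkp probe at chr13:6581718-6583872 and the Gapdh probe at chr6:125112105-125112274. Each is 60 bases long and given 5′ to 3′ in lower case, and the number is its start in the transcript it was designed on.
Pfkfb3 probe 617: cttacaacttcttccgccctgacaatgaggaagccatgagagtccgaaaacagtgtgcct
Pfkfb3 probe 1403: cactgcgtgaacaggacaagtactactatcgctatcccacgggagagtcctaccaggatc
Pfkp probe 2138: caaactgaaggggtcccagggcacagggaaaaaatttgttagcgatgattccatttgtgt
Gapdh probe 937: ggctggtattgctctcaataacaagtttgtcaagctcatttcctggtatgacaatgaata

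All values below are log2 processed intensities relative to the 75th percentile of the same array, so a negative level lies under that percentile. A level of 1 probe is not comparable with that of another probe. A difference is the NZO mean minus the B6-ob/ob mean, with strains taken from the scanner file labels. The direction opposes that of the authors' deposited value table, in which each column matched an array of the other strain best (r between 0.966 and 0.984 over 18308 probes). With the array of its own label, each column had a negative r, between -0.778 and -0.523. On each array 23617 to 24710 probes passed the background flag, no probe was saturated, and 3 arrays a strain set the limit of precision. Within a strain, arrays correlated at 0.968 to 0.989, with the lowest value between B6-ob/ob 4 and B6-ob/ob 6. The arrays lay on 3 slides: slide 1 held NZO 12, slide 2 held NZO 10 and B6-ob/ob 4, and slide 3 held NZO 11, B6-ob/ob 5 and B6-ob/ob 6. In bulk RNA, fewer cells of a type and less RNA per cell cannot be told apart.

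The islet label held in both strains: the beta cell genes Ins2 and Ins1 differed by 0.06 and 0.07, and the hormone genes Gcg and Ppy by 0.09 and 0.17, and none of the 4 passed (adjusted p of at least 0.48). Of 13 beta cell markers 2 were lower in NZO, Nkx6-1 and Kcnj11, and of 9 other endocrine markers 1 was lower, Ghrl, where 8.92% of all genes were. Higher in NZO were 15 of 17 acinar, 6 of 11 ductal, 12 of 14 stromal, 7 of 13 leukocyte and 2 of 12 endothelial markers (Esam and Vwf), where 13.2% of all genes were. The ductal genes Cftr and Muc1 and the stromal gene Pdgfra passed the background flag on no B6-ob/ob array. They entered the test through the NZO arrays alone, so their calls add no weight to these counts. None of 5 red cell markers passed by limma (1 did at an unadjusted p under 0.05). The brightest acinar genes, Cela3b and Cpa1, were higher by 1.83 and 2.13, and the macrophage genes Lyz2 and C1qa by 1.74 and 1.63. At the brightest probe, differences that did not pass were 0.25 and 0.32 for the ductal genes Krt18 and Krt7, 0.89 and -0.06 for the stromal genes Sparc and Acta2, and 0.30 and -0.20 for the endothelial genes Flt1 and Plvap. Sparc was higher by 1.88 and passed at the other of its 2 kept probes. Acta2 differed by 1.72 at 1 of its 3. The globin genes Hbb-bt and Hba-a1 differed by 0.37 and 0.51, without passing.

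The mean level of the acinar markers was 5.69, 5.86 and 6.34 on the NZO arrays, against 4.53, 3.86 and 3.09 on the B6-ob/ob arrays. That of the stromal markers was 2.05, 1.94 and 2.12 on the NZO arrays, against 0.32, -0.58 and -1.003 on the B6-ob/ob arrays. The ductal list had 1.07, 1.41 and 0.93 on the NZO arrays, against 0.06, -0.61 and -1.22 on the B6-ob/ob arrays, and the leukocyte list -0.09, -0.05 and -0.69 in NZO, against -1.33, -1.23 and -1.04 in B6-ob/ob. The strains did not overlap in any of these lists. Of 16 cell cycle genes, Mcm2 and Prc1 were lower in NZO (8.92% of all genes were), while Pcna and Mcm6, the brightest, differed by -0.31 and -0.89 and did not pass. B6-ob/ob 6 stood apart from the other B6-ob/ob arrays in cell cycle genes, with a mean level of -1.77, against 1.67 and 1.05 on B6-ob/ob 4 and 5, and each of the 10 genes is also given below without that array. Nkx6-1, Kcnj11, Ghrl, Esam, Vwf, Cftr, Muc1, Pdgfra, Mcm2 and Prc1 were named after their values were seen. The part of these cell types in any result below was not tested.

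Across the 10 genes, each taken at its brightest kept probe, Hk2 and Pfkfb3 were higher in NZO and none was lower by limma with Benjamini-Hochberg adjustment over 24627 probes at 0.05. At an unadjusted p under 0.05, 2 were higher and 2 were lower. Among all 16383 genes, 13.2% were called higher and 8.92% lower, and 2 of 10 higher is near that background. The median difference of the 10 genes was -0.02, against -0.03 over all genes. Counted by probe, 3 of 19 were higher (Hk2 and 2 of 3 for Pfkfb3), where 11.5% of all probes were. Lower were 2 of 19, both of Pfkp, where 10.3% of all probes were. Pfkfb3 at 617 and Pfkp at 3922 entered the test through the strain in which they are brighter alone, so their calls add no weight to these counts. Without them 2 probes were higher and 1 was lower. In either direction 21.8% of probes and 22.1% of genes were called. The NZO arrays lay wholly above the B6-ob/ob arrays at 3 of the 19 probes and wholly below at 4, where they did so at 18.6% and 22.4% of all probes, 41% in all.

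**Figure D1:**
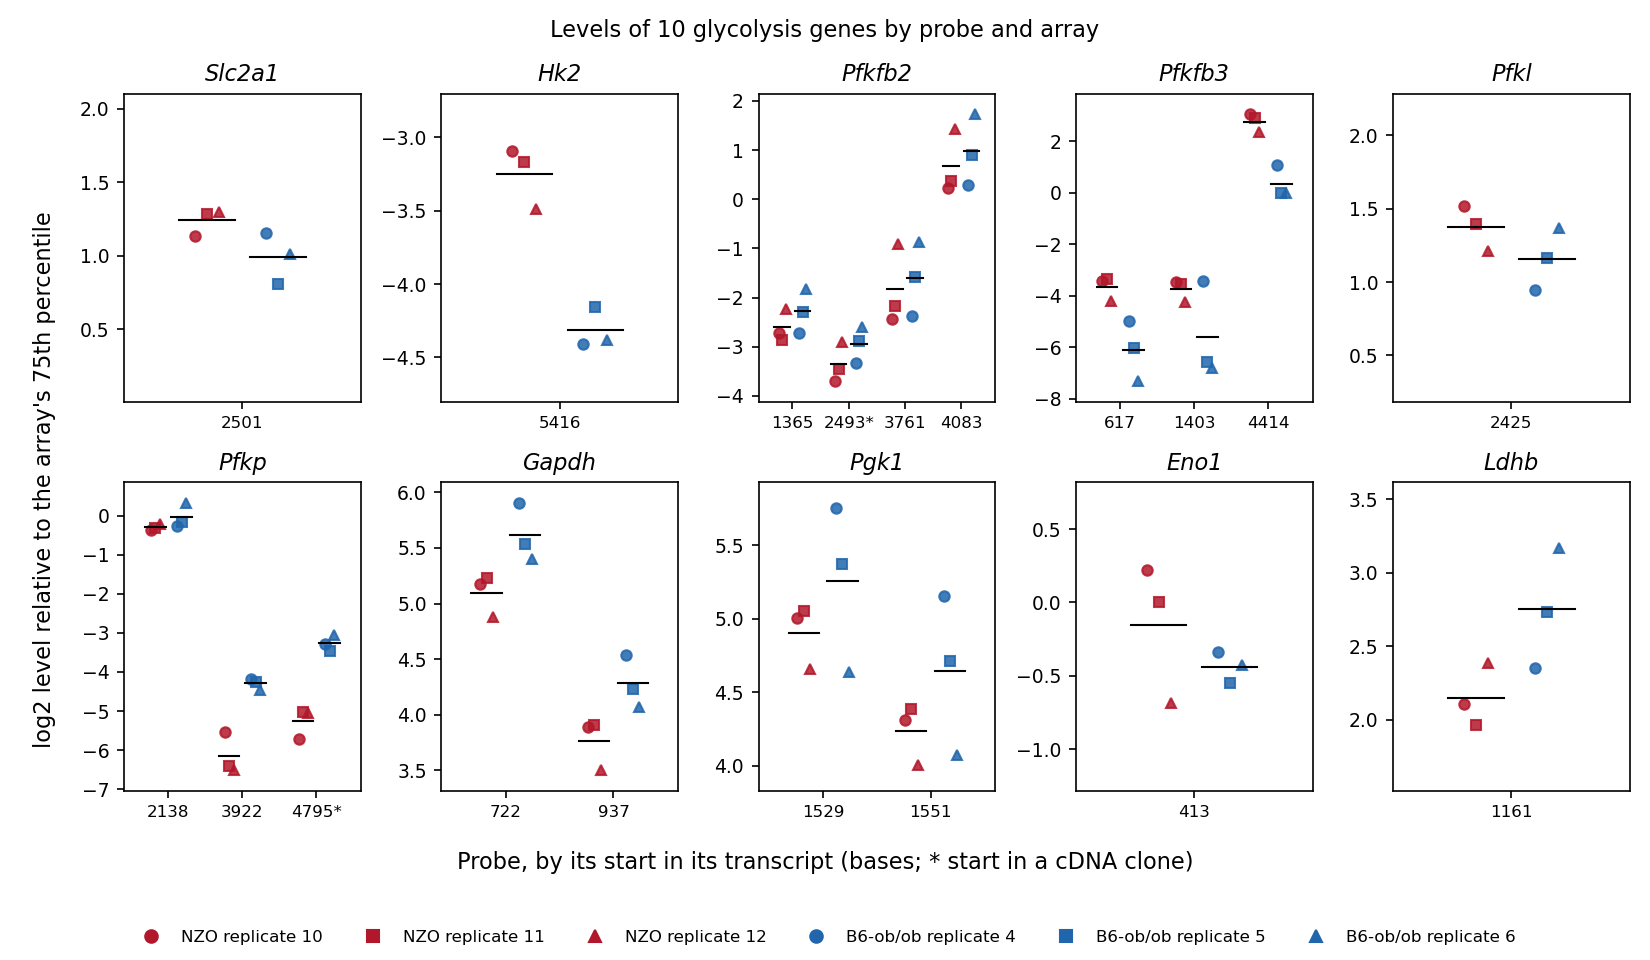
Levels of the 10 genes at each probe on each array, as log2 relative to the array's 75th percentile (vertical axis, on its own scale in each panel), with NZO arrays left of B6-ob/ob arrays at each probe. Points are arrays and horizontal lines are strain means; the NZO points lie above all B6-ob/ob points for Hk2 and for Pfkfb3 at 617 and 4414, and below them for Gapdh and for Pfkp at 3922 and 4795.

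At the entry of glucose, Slc2a1 encodes GLUT1, the transporter with high affinity that most tissues use. Its probe (chr4:118809864-118809923, plus strand) read 1.14, 1.29 and 1.30 on the NZO arrays, against 1.15, 0.81 and 1.01 on the B6-ob/ob arrays. NZO 10 lay just under B6-ob/ob 4, so the strains overlapped. The difference of 0.25 ± 0.13 (SE, n = 3 each) did not pass (adjusted p = 0.243), and its 95% interval ran from -0.07 to 0.57. Without B6-ob/ob 6 it was 0.26 (adjusted p = 0.295).

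Hk2 encodes hexokinase 2, a high-affinity hexokinase that is usually scarce in beta cells. Its probe (chr6:82675056-82675115, minus strand) was dim: the processed intensity was 50.6, 38.0 and 36.6 on the NZO arrays, against 17.4, 25.4 and 21.1 on the B6-ob/ob arrays. Every array called it well above background. On the log2 scale the NZO arrays read -3.10, -3.17 and -3.49, against -4.41, -4.16 and -4.38 on the B6-ob/ob arrays, with no overlap. The mean was -3.25 ± 0.21 in NZO and -4.31 ± 0.14 in B6-ob/ob (SD, n = 3 each), a 2.09-fold higher level in NZO (difference 1.06 ± 0.15 SE, adjusted p = 0.005 by limma). The difference was 1.31 within slide 2 and 1.095 within slide 3, and 1.03 without B6-ob/ob 6 (adjusted p = 0.015). With normexp background correction, which adds an offset and so compresses dim probes, it was 0.45 (adjusted p = 0.026), and with quantile normalization as well it was 0.31 and no longer passed (adjusted p = 0.058).

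Pfkfb3 and Pfkfb2 encode bifunctional enzymes that make and remove the strongest activator of phosphofructokinase. The Pfkfb3 enzyme has a high kinase activity and is known as a target of HIF, while the Pfkfb2 enzyme is abundant in heart and is also expressed in islets. Pfkfb3 has 3 probes on chromosome 2. The brightest, at start 4414 (chr2:11393579-11393638, minus strand), had intensities of 3589, 2549 and 2083 on the NZO arrays, against 780, 448 and 436 on the B6-ob/ob arrays.

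These gave log2 levels of 3.05, 2.90 and 2.35 in NZO, against 1.08, -0.02 and -0.01 in B6-ob/ob. All NZO arrays were above all B6-ob/ob arrays, and B6-ob/ob 4 was the highest of its strain. The difference was 2.41 ± 0.35 (SE, adjusted p = 0.005), which is 5.33-fold higher in NZO. It passed in all 18 alternatives run on the scanner files, at 2.23 to 2.81. It was 1.97 within slide 2 and 2.91 within slide 3, and 2.23 without B6-ob/ob 6 (adjusted p = 0.016). No other probe of the 10 genes passed in every alternative run for it.

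The 2 junction probes of Pfkfb3, whose sequences are printed above, were near background. At 617 the levels were -3.44, -3.35 and -4.21 in NZO, against -4.97, -6.03 and -7.32 in B6-ob/ob. It was well above background on 3 of 3 arrays of NZO and on 0 of 3 of B6-ob/ob, so its level in B6-ob/ob is only a bound. On the processed intensities the gene was at least 3.17-fold higher in NZO at that probe. This is set against the lowest signal well above background on each B6-ob/ob array or the probe's own signal, if higher. The bound does not hold for normexp background correction, which compresses dim probes. It was tested because of the NZO arrays alone, so the adjusted p of 0.031 from limma is given without a fitted difference.

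Probe 617 did not pass when slide was a block (adjusted p = 0.057) or without a filter on dim probes (adjusted p = 0.052). It also did not pass when NZO 10, NZO 11, NZO 12 or B6-ob/ob 5 was left out (adjusted p between 0.053 and 0.103), while it passed without B6-ob/ob 6 (adjusted p = 0.033) and with normexp background correction (adjusted p = 0.036). At 1403 the levels were -3.47, -3.56 and -4.23 in NZO, against -3.42, -6.59 and -6.81 in B6-ob/ob. The background flag was passed there by all NZO arrays and by 1 of 3 B6-ob/ob arrays, B6-ob/ob 4, which read as high as the NZO arrays. The probe did not pass (adjusted p = 0.199), nor did it without B6-ob/ob 6 (adjusted p = 0.388). It passed without B6-ob/ob 4 (adjusted p = 0.00165), a fit in which neither B6-ob/ob array measured it, so no size is given. Within slide 2, which holds B6-ob/ob 4, the difference was -0.05.

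Pfkfb2 has 4 probes on chromosome 1, at 1365, 2493, 3761 and 4083, where 2493 is the start in a cDNA clone. The brightest, at 4083 (chr1:132586122-132586181, minus strand), read 0.24, 0.36 and 1.42 in NZO, against 0.29, 0.91 and 1.73 in B6-ob/ob. The strains overlapped at all 4 probes and the differences, -0.32, -0.41, -0.23 and -0.30, did not pass (adjusted p between 0.336 and 0.799). At 3761 and 4083 the direction rested on single arrays. Without B6-ob/ob 6 the differences at the 4 probes were -0.10, -0.24, 0.14 and 0.07, and without NZO 10 that at 3761 was 0.07. At 1365 and 2493 the sign held in all 17 alternatives run on the scanner files, with differences as small as -0.06. NZO 12 was the highest NZO array and B6-ob/ob 6 the highest B6-ob/ob array at each of the 4. Slc2a2, the GLUT2 gene, had the same highest arrays, with 3.49, 3.01 and 3.79 in NZO, against 2.19, 3.51 and 4.78 in B6-ob/ob.

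The log2 ratio of Pfkfb3 at 4414 to Pfkfb2 at 4083 within an array, a description chosen after the values were seen, was 2.82, 2.53 and 0.92 in NZO, against 0.79, -0.92 and -1.74 in B6-ob/ob. These did not overlap, although NZO 12 and B6-ob/ob 4 were close. Only its change between strains has a meaning, since the probes differ in brightness.

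**Figure D2:**
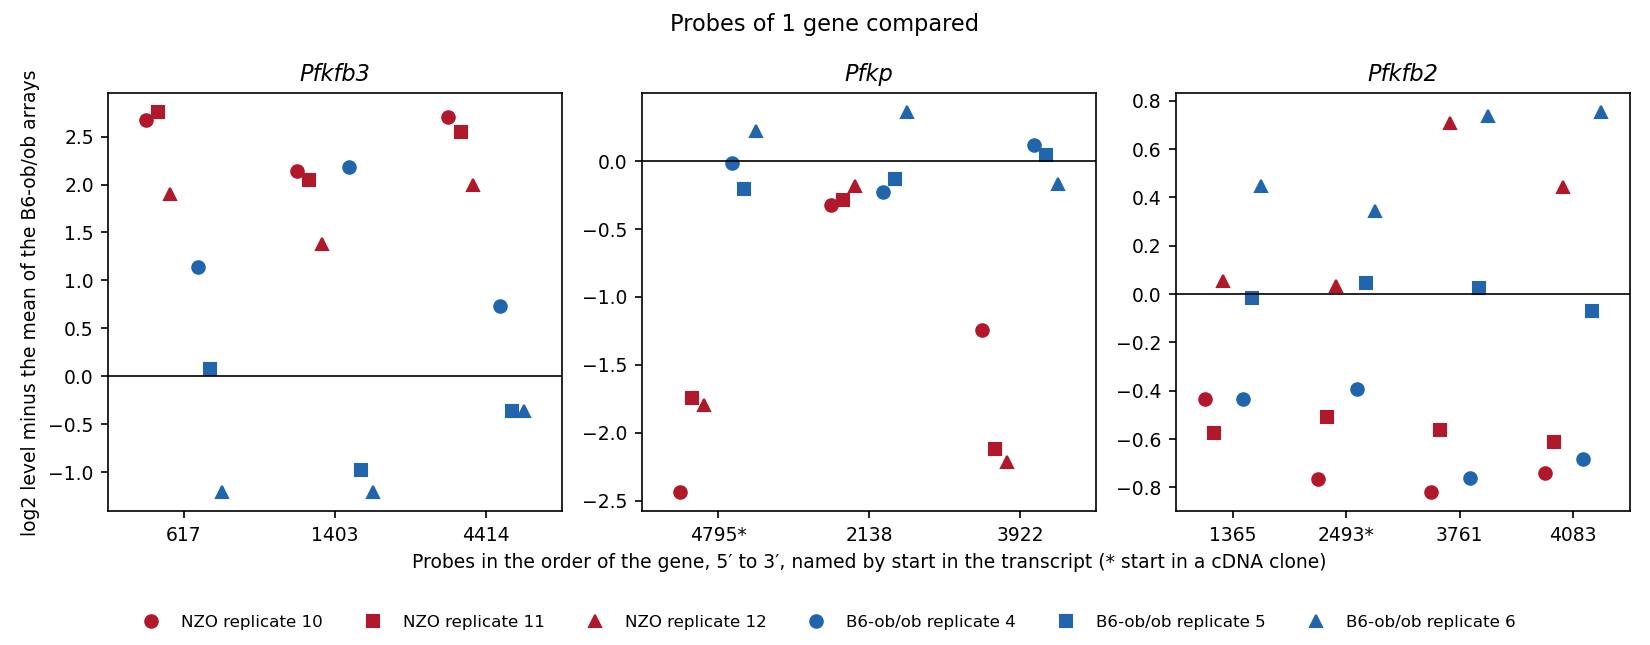
Each probe of Pfkfb3, Pfkp and Pfkfb2 on each array, as log2 level minus the mean of the B6-ob/ob arrays at that probe, with probes in gene order (horizontal axis, rank only) and NZO points left of B6-ob/ob points. At Pfkp the NZO points lie apart at 4795 and 3922 and beside the B6-ob/ob points at 2138. At Pfkfb3 1403 B6-ob/ob 4 lies among the NZO points. No NZO array passed the background flag at Pfkp 3922, and no B6-ob/ob array did at Pfkfb3 617.

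Phosphofructokinase, which commits the sugar to glycolysis, is built from liver, platelet and muscle subunits. Pfkl, the liver subunit, had 1 probe (chr10:77450926-77450985, minus strand). It read 1.52, 1.39 and 1.21 in NZO, against 0.95, 1.16 and 1.37 in B6-ob/ob. The strains overlapped and the difference of 0.22 ± 0.16 (SE) did not pass (adjusted p = 0.380). It was 0.32 without B6-ob/ob 6 and 0.11 without B6-ob/ob 4, and passed in neither. Pfkm, the muscle subunit, differed by -0.06 (adjusted p = 0.788).

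Pfkp, the platelet subunit, had 3 probes that did not give the same result. The brightest was the junction probe at 2138, printed above, which read -0.36, -0.32 and -0.22 in NZO, against -0.26, -0.17 and 0.32 in B6-ob/ob. The strains overlapped, and the difference of -0.27 ± 0.18 (SE) did not pass (adjusted p = 0.345), at -0.09 without B6-ob/ob 6 (adjusted p = 0.661). At 3922 (chr13:6579124-6579183) the levels were -5.54, -6.42 and -6.51 in NZO, against -4.17, -4.25 and -4.46 in B6-ob/ob.

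That probe was well above background on 0 of 3 arrays of NZO and on 3 of 3 of B6-ob/ob. On the processed intensities it was at least 2.04-fold lower in NZO (adjusted p = 0.005 by limma, and 0.013 without B6-ob/ob 6). It was tested because of the B6-ob/ob arrays alone, so no fitted difference is given. The third probe, designed on a cDNA clone (chr13:6588296-6588355), read -5.70, -5.01 and -5.06 in NZO, against -3.28, -3.47 and -3.04 in B6-ob/ob. The strains did not overlap there, and the difference was -1.99 ± 0.23 (SE, adjusted p = 0.002). It was -1.88 without B6-ob/ob 6 (adjusted p = 0.007). The background flag was passed on 2 of 3 NZO arrays and on all B6-ob/ob arrays.

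Both dim probes lost the call with normexp background correction, with an adjusted p of 0.625 for 3922, and of 0.071 for the clone probe at a difference of -0.46. The clone probe lies upstream of the junction probe in the gene and 3922 lies downstream of it. Since 3922 was tested because of the B6-ob/ob arrays alone, no pattern along the gene is read from these positions. Set against the junction probe within an array, the difference between strains was -1.73 for the clone probe on the log2 scale, with no overlap of the strains, as a description chosen after the values were seen and with 1 NZO array below the flag. Sequence differences between the strains under the probes were not examined.

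**Figure D3:**
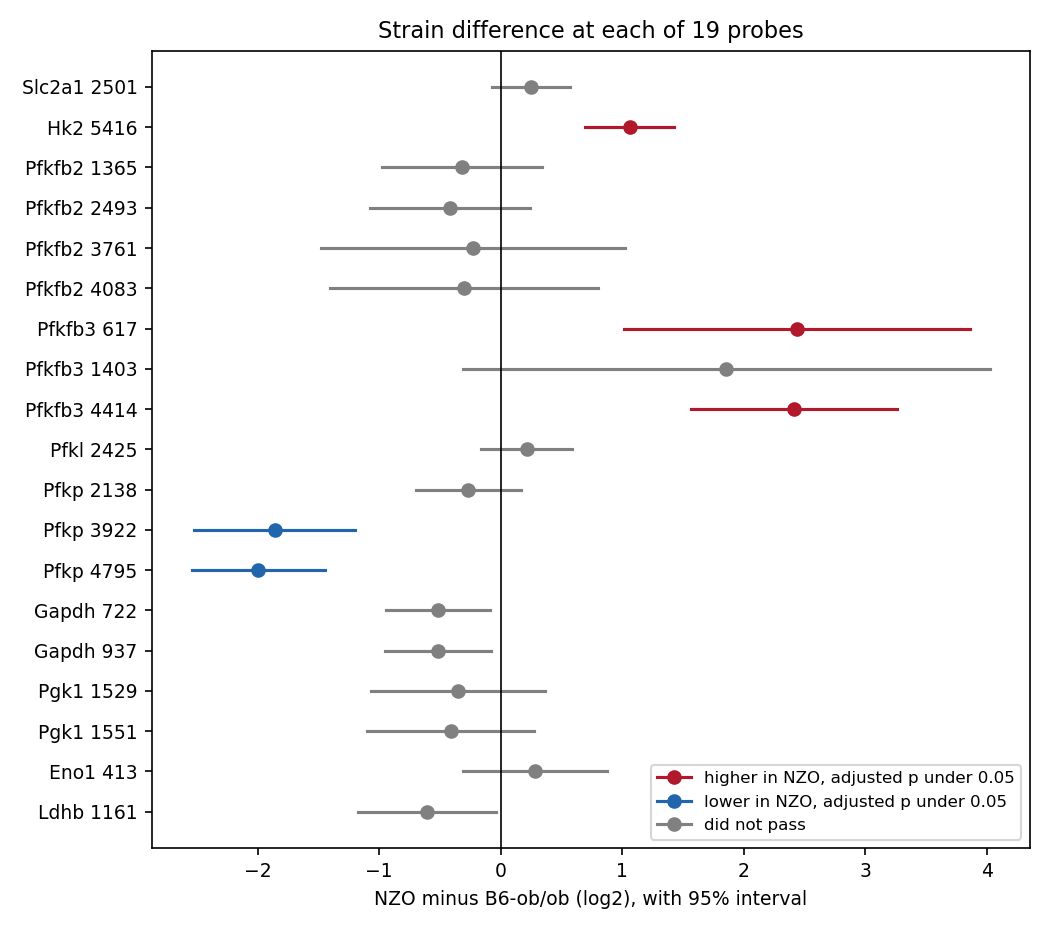
Difference between the strains at each of the 19 probes, NZO minus B6-ob/ob in log2 units (horizontal axis), as points with 95% intervals from limma. Names give the gene and the probe's start in its transcript, or in a cDNA clone for Pfkp 4795 and Pfkfb2 2493. Hk2 and Pfkfb3 at 617 and 4414 lie to the right, Pfkp at 3922 and 4795 to the left, and the other 14 did not pass. Pfkfb3 at 617 has only a bound in B6-ob/ob and Pfkp at 3922 only a bound in NZO.

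In the lower part of the pathway, Gapdh encodes the dehydrogenase that yields NADH and Pgk1 the kinase that yields the first ATP. Gapdh at 722 (chr6:125112515-125112573, minus strand) read 5.18, 5.23 and 4.88 in NZO, against 5.90, 5.53 and 5.40 in B6-ob/ob. The junction probe at 937 read 3.89, 3.90 and 3.50 in NZO, against 4.54, 4.24 and 4.07 in B6-ob/ob. All NZO arrays lay below all B6-ob/ob arrays at both probes.

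Both Gapdh probes gave a difference of -0.52 ± 0.18 (SE), and neither passed (adjusted p = 0.090 and 0.093). With quantile normalization the differences were -0.51 and -0.53 and passed (adjusted p = 0.020 and 0.031). They were -0.72 and -0.65 within slide 2 and -0.24 and -0.25 within slide 3. Without B6-ob/ob 6 both were -0.62 (adjusted p = 0.072 and 0.075). Gapdh is often used as a loading reference, and no value here was scaled to it.

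Pgk1 has 2 probes on chromosome X (plus strand), at 1529 (chrX:103398767-103398826) and 1551, which share 38 of 60 bases and are not independent readings. The first was spotted 10 times per array, with an SD over spots of 0.040 to 0.077. It read 5.002, 5.06 and 4.66 in NZO, against 5.75, 5.37 and 4.64 in B6-ob/ob. B6-ob/ob 6 was the lowest array of all, and the strains overlapped. The difference was -0.35 ± 0.30 (SE, adjusted p = 0.458), and -0.41 at the second probe (adjusted p = 0.358). At 1529 it was -0.75 within slide 2 and 0.05 within slide 3, and without B6-ob/ob 6 it was -0.66 (adjusted p = 0.071). Without B6-ob/ob 4, the highest array, it was -0.10 (adjusted p = 0.824).

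Eno1 encodes alpha-enolase. Its probe (chr4:149618134-149618359, plus strand, across an exon boundary) read 0.22, 0.00 and -0.69 in NZO, against -0.34, -0.55 and -0.43 in B6-ob/ob. NZO 12 was lower than every B6-ob/ob array while the other NZO arrays were above them. The difference of 0.28 ± 0.24 (SE) did not pass (adjusted p = 0.464), and without NZO 12 it was 0.55 (adjusted p = 0.060). Without NZO 10, the highest array, it was 0.10 (adjusted p = 0.830), and without B6-ob/ob 6 it was 0.29 (adjusted p = 0.531).

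Ldhb encodes the heart subunit of lactate dehydrogenase, which favours the conversion of lactate to pyruvate. Its probe (chr6:142438838-142438897, minus strand) read 2.10, 1.96 and 2.39 in NZO, against 2.35, 2.74 and 3.17 in B6-ob/ob. NZO 12 and B6-ob/ob 4 overlapped by a small margin. The difference of -0.60 ± 0.23 (SE) did not pass (adjusted p = 0.123), although its 95% interval, which is not adjusted for the number of probes, ran from -1.17 to -0.04. Without B6-ob/ob 4 it was -0.80 and passed (adjusted p = 0.046), while without B6-ob/ob 6 it was -0.39 (adjusted p = 0.217).

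Ldha, which encodes the muscle subunit and favours lactate, is not among the 10 genes but is set beside Ldhb. It was higher in NZO by 1.04 ± 0.22 (SE, adjusted p = 0.019), at both of its probes. The log2 ratio of Ldha to Ldhb was 0.51, 0.51 and -0.01 in NZO, against -0.45, -1.46 and -2.02 in B6-ob/ob, without overlap. It is a description chosen after the values were seen, with no test.

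The rest of the pathway was taken from a list of 30 other glycolysis genes, all on the array, of which 26 had a kept probe. Gapdhs, Pgk2, Pgam2 and Ldhc had none. Of the 26, each at its brightest kept probe, 11 were higher in NZO and none was lower by limma. Of all genes 13.2% were higher and 8.92% lower. This list, like the others here, was chosen with earlier results of these data known, so these shares are not an independent comparison. At an unadjusted p under 0.05, 14 were higher and 1 was lower. The median difference was 0.47, against -0.03 over all genes. The mean level of the list was 1.42, 1.54 and 1.29 on the NZO arrays, against 0.58, 0.43 and 0.40 on the B6-ob/ob arrays. With slide as a block 7 passed, and without NZO 10, NZO 11 or B6-ob/ob 5 the count was 5, 5 and 4. Over all probes, 2060 were higher with the block and 1987, 1810 and 1660 without these arrays, against 2839 without these changes.

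**Figure D4:**
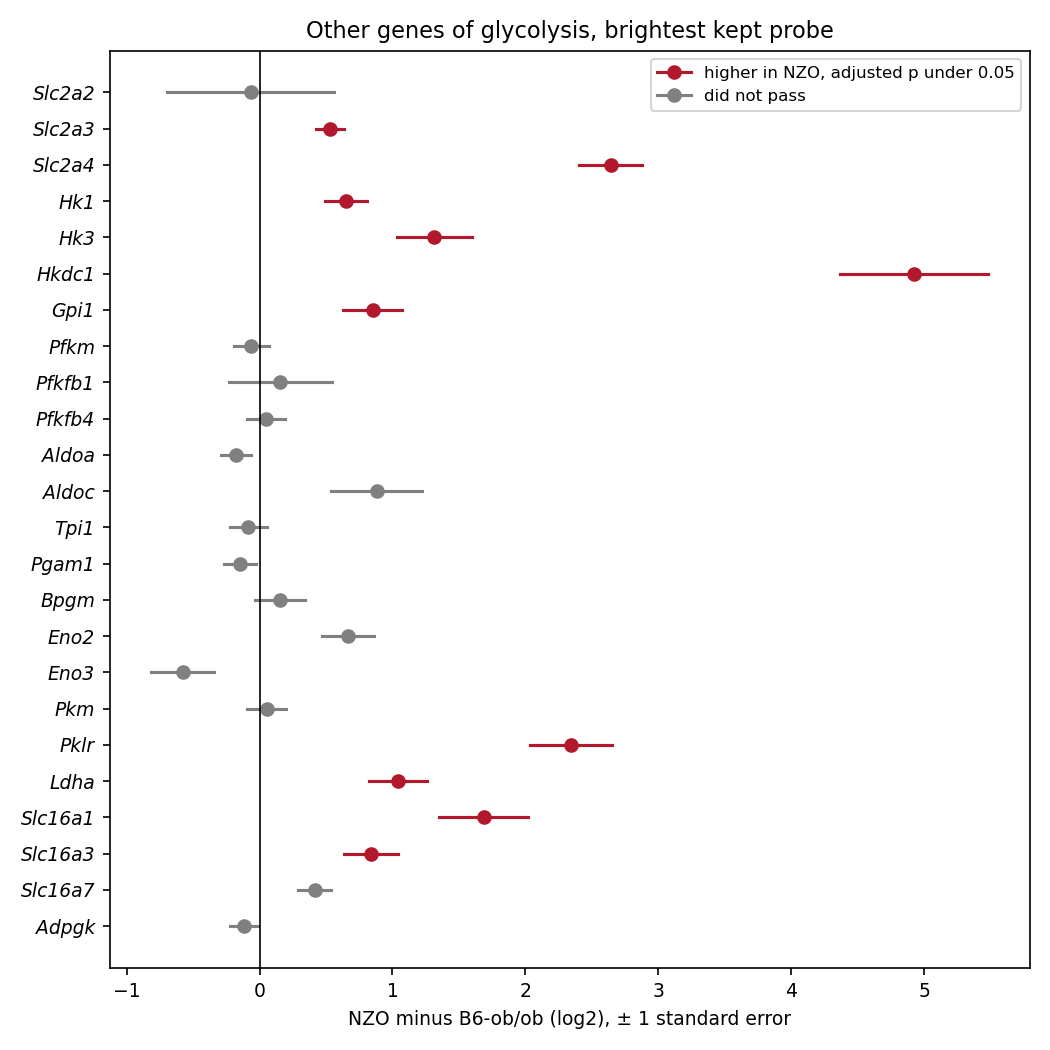
Difference between the strains for 24 of the 26 other genes of glycolysis at their brightest kept probe, NZO minus B6-ob/ob in log2 units (horizontal axis), as points with 1 standard error. The 10 shown that passed all lie to the right of 0, with Hkdc1 at 4.92 the farthest of those shown.

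Hkdc1, a hexokinase domain protein, read -0.40, 0.30 and -0.57 in NZO, against -3.98, -5.28 and -6.17 in B6-ob/ob. The strains lay far apart, and it was higher in NZO by 4.92 ± 0.56 (SE, adjusted p = 0.002). Its probe passed the background flag on 2 of 3 B6-ob/ob arrays. Slc2a4, the insulin-responsive transporter GLUT4, was higher by 2.64 and Pklr, the liver and red cell pyruvate kinase, by 2.34 (adjusted p = 0.001 and 0.004).

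Slc16a1, the monocarboxylate transporter MCT1 that is normally kept low in beta cells, was higher by 1.69 ± 0.33 (SE, adjusted p = 0.016). Its levels were -2.02, -1.43 and -1.90 in NZO, against -2.76, -3.78 and -3.88 in B6-ob/ob. Hk1, another high-affinity hexokinase, was higher by 0.65 at 1 of its 3 probes, and Slc2a3, the transporter GLUT3, by 0.53. Of the genes that passed, Slc16a1, Hk1, Slc2a3 and Slc16a3 did not pass when slide was a block (adjusted p = 0.065, 0.121, 0.091 and 0.098). Hk3 at 1.31, Gpi1 at 0.85 and Slc16a3 at 0.84 also passed and were named after their values were seen.

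Slc2a2, the transporter gene of mouse beta cells, did not pass. It differed by -0.06 ± 0.63 (SE), a wide error since the B6-ob/ob arrays spanned 2.19 to 4.78.

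Among relatives of the 10 genes, the regulators Pfkfb1 and Pfkfb4 differed by 0.16 and 0.05, and Pkm, the pyruvate kinase of most tissues, by 0.05 at its brightest probe. At another of its 3 kept probes the difference was -1.48. The enolase gene Eno2 differed by 0.67 at its brightest probe (adjusted p = 0.059) and Eno3 by -0.58 (adjusted p = 0.136). At the other of its 2 kept probes Eno2 was higher by 0.68 and passed.

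Of 22 tested genes for pyruvate use, glucose output and side branches, 1 was higher and none lower, against 13.2% and 8.92% of all genes. At an unadjusted p under 0.05 by limma, 2 of the 22 were higher and 1 lower. The gene that passed was Gpd1, higher by 1.0999 ± 0.26 (SE, adjusted p = 0.027 by limma). Gpd1 encodes the cytosolic glycerol phosphate dehydrogenase, and its brightest probe read 4.78, 4.75 and 3.94 in NZO, against 3.61, 3.23 and 3.33 in B6-ob/ob. Pdk1, the kinase that switches off pyruvate dehydrogenase and a known HIF target, differed by -0.57 (adjusted p = 0.267). The median of the 22 was -0.12.

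Of 26 control genes, 3 were higher in NZO and none lower by limma, a share near the 13.2% of all genes that were higher. Of all genes 8.92% were lower. At an unadjusted p under 0.05, 8 of the 26 were higher and 2 lower. The median of the 26 was 0.07. Egln3, an oxygen-sensing prolyl hydroxylase whose own transcript is a known HIF target, was higher by 3.38 ± 0.41 (SE, adjusted p = 0.003). It read -0.48, -0.41 and -1.84 in NZO, against -3.98, -4.56 and -4.34 in B6-ob/ob. Gckr was higher by 1.097 and Epas1, which encodes HIF-2 alpha, by 0.62. When slide was a block, Gckr and Epas1 did not pass (adjusted p = 0.0502 and 0.062). Hif1a differed by -0.0015 and Mlxipl by 0.25, neither past the threshold.

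Of 17 tested HIF targets outside glycolysis, 3 were higher and 1 lower in NZO, where 13.2% and 8.92% of all genes were. Their median was 0.18. Stc2, a secreted stanniocalcin, was higher by 5.92 ± 0.44 (SE, adjusted p = 0.001), Bhlhe40, a transcriptional repressor, by 1.69 (adjusted p = 0.002) and Car9, a carbonic anhydrase, by 1.22 (adjusted p = 0.047). Ankrd37 was lower, at -0.94 (adjusted p = 0.020). Stc2 passed the background flag on 1 of 3 B6-ob/ob arrays, so its size there rests on dim readings. Car9 did not pass when slide was a block (adjusted p = 0.076). Vegfa, the vascular growth factor, differed by -0.27 (adjusted p = 0.477).

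**Figure D5:**
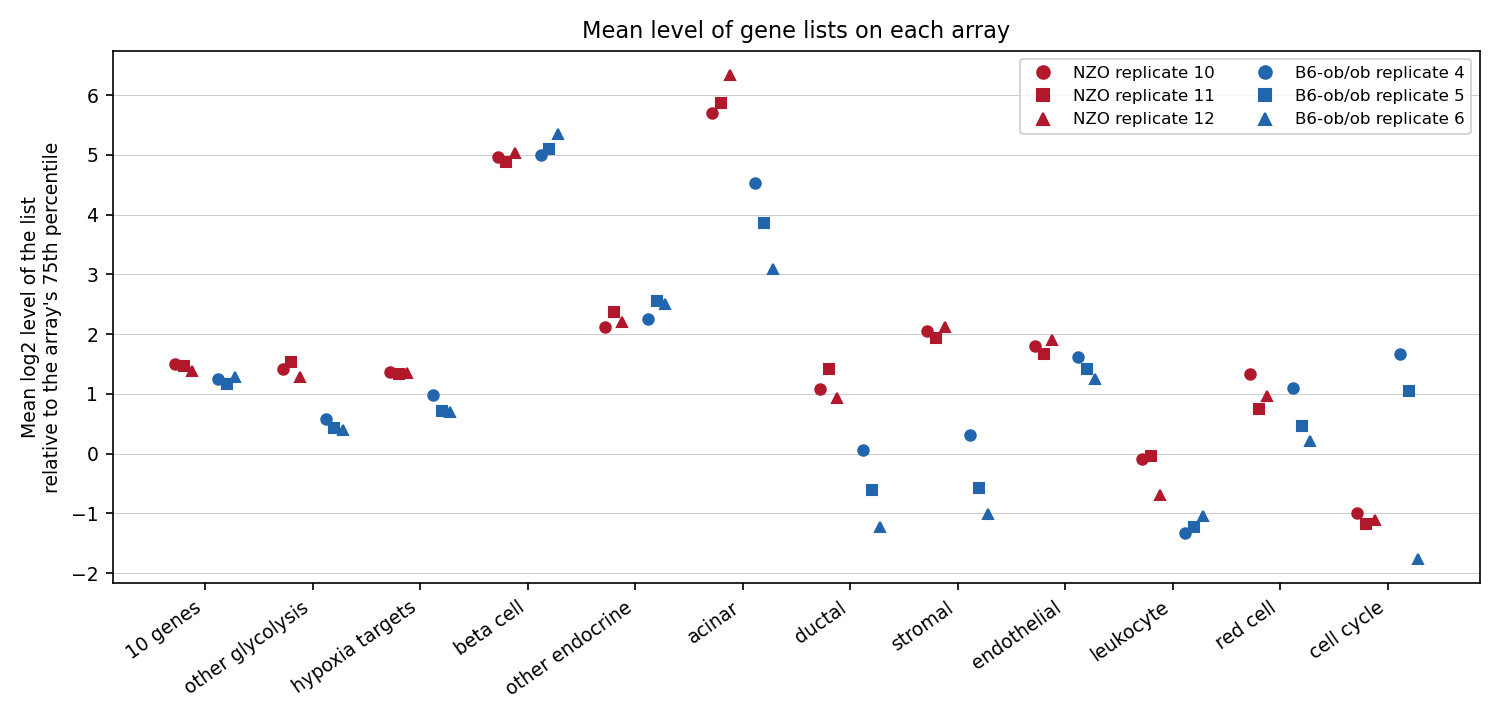
Mean log2 level of each gene list on each array, relative to the array's 75th percentile (vertical axis), with the NZO arrays left of the B6-ob/ob arrays. The other glycolysis genes lie at 1.29 to 1.54 in NZO, above 0.40 to 0.58 in B6-ob/ob. The 10 genes, the HIF targets and the acinar, ductal, stromal, endothelial and leukocyte markers separate the strains in the same direction.

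The promoters of Pfkfb3 and Hk2, the genes that passed at their brightest probe, are shown as the 250 bases before each start, from RefSeq on GRCm38.p6, minus strand. Capitals mark ACGTG, the core of the HIF site, and GCGTG, each searched on both strands, and a match to ACGTG on the other strand appears as CACGT. The palindrome CACGTG, to which ChREBP and USF factors bind, contains ACGTG on both strands and is then in capitals whole. The Pfkfb3 starts are at chr2:11553930-11554179 and chr2:11502091-11502340, and Hk2 at chr6:82774455-82774704.
Pfkfb3 promoter, first start: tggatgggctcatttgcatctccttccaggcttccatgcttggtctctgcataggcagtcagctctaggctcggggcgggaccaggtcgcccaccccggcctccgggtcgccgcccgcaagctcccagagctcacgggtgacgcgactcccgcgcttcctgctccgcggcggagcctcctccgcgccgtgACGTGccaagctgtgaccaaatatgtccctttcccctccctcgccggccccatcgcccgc
Pfkfb3 promoter, second start: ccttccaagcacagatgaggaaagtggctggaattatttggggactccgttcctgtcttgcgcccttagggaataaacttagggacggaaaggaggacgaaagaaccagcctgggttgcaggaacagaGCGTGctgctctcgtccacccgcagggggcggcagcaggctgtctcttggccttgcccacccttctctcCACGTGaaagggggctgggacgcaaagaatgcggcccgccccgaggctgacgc
Hk2 promoter: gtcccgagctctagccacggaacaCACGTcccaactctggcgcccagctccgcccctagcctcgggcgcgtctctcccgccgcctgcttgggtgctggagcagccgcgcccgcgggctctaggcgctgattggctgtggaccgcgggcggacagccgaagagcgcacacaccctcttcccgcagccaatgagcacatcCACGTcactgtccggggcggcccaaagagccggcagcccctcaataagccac

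ACGTG was found in 7 of 15 promoter windows of the 10 genes, against 16.6% of 32851 windows in all, and in at least 1 window of 5 of the 10 genes. GCGTG was found in 11 of 15 windows, against 28.2% of all, and in at least 1 window of 8 of the 10 genes. CACGTG was found in 2 of 15, in Pfkfb2 and Pfkfb3, against 6.02% of all. Some windows of Eno1 and of Pfkfb2 overlap, so the 15 windows are not independent, and no share by gene was computed over all genes. The median GC content was 62.8% in the windows of the 10 genes and 52.4% in all windows, and the windows were not matched on it. A match is a description of these letters and not of binding.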

How the data were processed

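Islet RNA of 3 NZO and 3 B6-ob/ob samples was amplified to Cy3-labelled cRNA and hybridised to arrays of design 014868, per the labels' protocols. The authors deposited scanner files of spot intensity on a linear scale. The file headers give Agilent Feature Extraction 10.5.1.1, and version 9.1 stands in the submitters' processing notes. The processed intensity is background-subtracted and not normalised between arrays. The flag columns of the deposited files, which mark outlier, saturated and well-above-background spots, were used as given. The authors' deposited value table holds intensity on a linear scale, not centred. Its column medians are 21.3, 21.4 and 21.4499 for NZO 10, 11 and 12 and 22.1, 21.4 and 22.4 for B6-ob/ob 4, 5 and 6. It was used by its own labels as an alternative only, with its direction not settled.

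Log2 processed intensity was averaged over unflagged spots (61 to 76 spots per array were flagged) and lowered by the array's 75th percentile. Probes flagged well above background on 3 or more of 6 arrays were kept, 24627 of 41174. The test was limma 3.58.1 (lmFit, then eBayes; R 4.3.3), two-sided, and p-values were adjusted over all kept probes by Benjamini-Hochberg. A gene stands at its brightest kept probe. Names came from the files, updated through RefSeq accessions (25097 probes) or symbols (7973), with 8104 left as given. The functions were tested on simulated data.

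The rule for named genes covers the 10 genes, their relatives, up to 5 further glycolysis genes and up to 4 per control list with the largest called differences, Hif1a, Egln3, Mlxipl, Pdk1 and Vegfa, and the 2 brightest genes per marker list. Not every gene under this rule is reported here. The 10 genes and all lists were chosen with earlier results of these data known. Alternatives changed normalisation, background, value source, filter, gene summary, slide, the prior for the variance and array weights, or left out 1 array at a time.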

Additional observations from a re-analysis of the deposited data

How the results depend on the processing

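Of the 10 genes, 2 were higher in NZO at the brightest probe in every setting that left out 1 array. Counts that moved with the processing are grouped by setting, as higher and lower in NZO. Quantile normalization gave 1 lower gene of the 10 and 4 lower probes of the 19. Normexp background gave 0 lower probes, 5 higher control factors and 2 higher genes of pyruvate use and reversal, and with quantile normalization as well 1 higher and 1 lower gene of the 10, with 5 higher and 1 lower control factors. Requiring all 6 arrays, or testing only the brightest probe per gene, left 0 lower probes, because the dim Pfkp probes were then not tested. The filter at 1 array gave 2 higher genes of pyruvate use and reversal. The mean of a gene's probes gave 1 lower gene of the 10 (Pfkp), 1 lower other glycolysis gene and 1 lower control factor. A trended robust prior gave 1 lower control factor and 2 higher genes of pyruvate use and reversal. Slide as a fixed block gave 7 higher other glycolysis genes, 1 higher control factor and 2 higher genes of pyruvate use and reversal. Over all probes that setting called 2060 higher and 1584 lower. Fits that left out 1 array called 1660 to 2868 higher and 1150 to 2483 lower over all probes. Array weights, fitted gene by gene after the data were seen because the default did not converge, gave 2 lower genes of the 10, 5 higher and 6 lower probes, 1 lower other glycolysis gene, 8 higher and 2 lower control factors, 2 higher and 5 lower genes of pyruvate use and reversal and 5 higher HIF targets. Over all probes they called 4889 higher and 5504 lower, against 2839 and 2536. In that setting B6-ob/ob 5 had a weight of 5.95, against 0.43 and 0.46 for B6-ob/ob 4 and 6, so the B6-ob/ob side rested mostly on 1 array. Leaving out 1 array gave 2 to 2 higher and 0 to 1 lower genes of the 10, 2 to 4 higher and 2 to 3 lower probes, 4 to 11 higher and 0 to 0 lower other glycolysis genes, 2 to 4 higher and 0 to 1 lower control factors, 0 to 2 higher and 0 to 1 lower genes of pyruvate use and reversal, and 2 to 3 higher and 0 to 1 lower HIF targets. The value table by its own labels turned Hk2 to -1.003, Pfkfb3 at 617 to -1.64, Pfkp at 3922 and 4795 to 0.31 and 2.06 and Gapdh at 722 to 0.51. It held the brightest probe of only 6 of the 10 genes, with 1 of these genes higher and 1 lower. Of the 19 probes it held 12, with 2 higher and 1 lower. It gave 0 higher and 9 lower of 22 other glycolysis genes, 0 higher and 3 lower of 19 control factors, 0 higher of 20 genes of pyruvate use and reversal and 1 higher and 2 lower of 14 HIF targets. Apart from the stated constructions, the cause of these changes was not tested. Replicate numbers pair no samples, since the strains share none, and slide served as the block. Dim probes, those of Hk2, of Pfkfb3 at 617 and 1403 and of Pfkp at 3922 and 4795, are limited by background.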
